A study of Mus musculus with 5 samples.

Results

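The genes described here are Dner and the Notch receptors and ligands, 10 of the 21887 protein-coding genes placed on the assembled mouse chromosomes: Dner, the receptors Notch1, Notch2, Notch3 and Notch4, the Delta-like ligands Dll1, Dll3 and Dll4, and the Jagged ligands Jag1 and Jag2. They were taken by name, and Dner was chosen by its measured peaks: 2 treated libraries had a strong summit within 1 kb of a Dner end where the control had none. Its peaks are therefore described and not tested. What was counted were ATRX peaks, regions where chromatin fragments pulled down with an antibody to the remodeller ATRX piled up over the background (ChIP-seq).

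All libraries came from primary neurons of C57BL6/J mouse embryos at E15.5-17.5, grown in Neurobasal A with B27, glutamine and fetal bovine serum and given lentivirus at day 5 in vitro. Control neurons expressed the red fluorophore mCherry and were collected after 14 days in vitro (DIV14). The other libraries carried TBC1D3, a gene of hominoid primates with no mouse counterpart, at DIV14; MICAL1-M1, a construct of the actin-oxidising enzyme MICAL1 whose form the labels do not explain, at DIV14; and mCherry at DIV7, called young neurons in the series design. The title of the series names a hominoid-specific signalling axis and the tempo of synaptic maturation. There was 1 library per group, so no value has a replicate error and no difference between conditions was tested. The peaks of the library labelled MICAL1-M1 carry the word M2 in their names, which the labels do not explain.

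Notch receptors are single-pass proteins that are cut after a Delta-like or Jagged ligand on a neighbouring cell binds them. The freed intracellular part enters the nucleus and, with the DNA-binding protein RBPJ and a Mastermind coactivator, switches on Hes and Hey repressors, which hold back proneural factors. DNER is a transmembrane protein of neurons with repeats like those of Delta that has been described as a non-canonical Notch ligand. In embryonic brain the pathway keeps progenitors from becoming neurons, and in neurons after mitosis it has been linked to dendrite shape and synaptic plasticity. ATRX works with DAXX to place histone H3.3 and is best known at pericentromeric heterochromatin, telomeres and G-rich repeats. A peak shows where ATRX-bound chromatin was recovered and does not measure expression, so the cell type of the cultures could not be checked against marker genes from these files.

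The control list held 96670 peaks, the TBC1D3 list 199059, the MICAL1-M1 list 141387 and the DIV7 list 213982. All were called at an uncorrected p up to 0.05, and 0.205% to 4.19% of the peaks in a list reached a q (the p corrected over the genome) of 0.05 or less. From fold and p, the pileup at a summit and the local background could be solved for; the control had a median background of 3.56 fragments, TBC1D3 one of 1.22, MICAL1-M1 one of 2.61 and DIV7 one of 1.28. In the TBC1D3 and DIV7 lists a pileup of 3 fragments could therefore be a peak, against 7 in the control. Intervals below are exact 95% intervals and cover counting error only.

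Upstream sequences are shown for the 4 genes whose outermost start lay under a peak in at least 1 list, with every CpG dinucleotide, the site of DNA methylation, in capitals. Each is the 250 bases before the annotated start, 5′ to 3′ on the gene's own strand, from RefSeq on GRCm38.p6: chr1:84696222-84696471 (minus strand) for Dner, chr2:26503823-26504072 (minus) for Notch1, chr2:119325534-119325783 (plus) for Dll4 and chr2:137116521-137116770 (minus) for Jag1.
Dner: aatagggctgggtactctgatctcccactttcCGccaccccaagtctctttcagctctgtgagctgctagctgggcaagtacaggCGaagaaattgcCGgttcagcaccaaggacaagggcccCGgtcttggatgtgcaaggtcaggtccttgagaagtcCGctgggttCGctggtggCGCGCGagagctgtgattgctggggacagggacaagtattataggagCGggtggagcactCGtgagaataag
Notch1: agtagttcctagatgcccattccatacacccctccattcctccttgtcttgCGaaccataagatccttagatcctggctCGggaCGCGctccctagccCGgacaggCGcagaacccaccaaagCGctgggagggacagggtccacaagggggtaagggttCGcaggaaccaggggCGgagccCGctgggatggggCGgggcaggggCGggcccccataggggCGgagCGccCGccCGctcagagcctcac
Dll4: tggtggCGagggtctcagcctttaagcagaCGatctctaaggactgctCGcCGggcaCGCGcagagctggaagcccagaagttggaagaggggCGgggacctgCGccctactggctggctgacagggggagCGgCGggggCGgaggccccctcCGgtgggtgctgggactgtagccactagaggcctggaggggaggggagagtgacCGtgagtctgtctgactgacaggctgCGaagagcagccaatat
Jag1: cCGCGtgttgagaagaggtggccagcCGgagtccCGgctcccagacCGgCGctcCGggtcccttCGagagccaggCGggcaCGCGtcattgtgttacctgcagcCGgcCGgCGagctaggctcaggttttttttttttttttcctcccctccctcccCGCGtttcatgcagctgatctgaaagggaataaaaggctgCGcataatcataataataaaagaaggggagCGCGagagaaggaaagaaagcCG
Dner had 11 CpGs here, near the median of 10 over 21263 upstream windows of protein-coding genes, with 14 at Dll4, 16 at Notch1 and 20 at Jag1. Notch2 had 34 and Jag2 had 54, and 0.0235% of the windows had as many as Jag2. The Jag2 window lies before the annotated start at chr12:112929495, inside the outermost gene end from which distances are measured. The letters TGGGAA, the core of the RBPJ motif, were searched on both strands and were found in 0 of the 11 windows of the 10 genes (Dll1 has 2 annotated starts), against 20.9% of all windows; this says only that these letters are not in these 250 bases.

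At Dner, all 4 lists had a peak at the start of the gene, the control included. Dner spans chr1:84369839-84696221 on the minus strand, 326 kb, so its start is the end with the higher coordinate. The control peak ran from 84693414 to 84696829, 3416 bp, and covered the start. Its summit lay 1279 bp into the gene, outside a 1 kb window, while the TBC1D3 summit lay 385 bp, the MICAL1-M1 summit 448 bp and the DIV7 summit 578 bp into the gene. A second control peak, from 84697170 to 84697674, also reached into that window, with its summit 1101 bp before the start. The absence of Dner from the control's 1 kb count thus goes with the positions of control summits, and not with a lack of signal there.

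**Figure D1:**
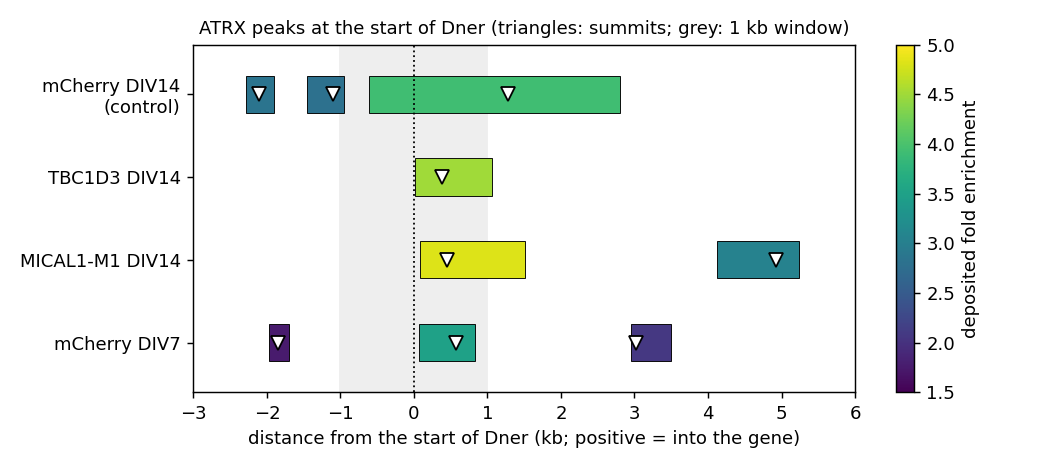
Peaks of the 4 lists around the start of Dner, as bars placed by distance from the start in kb (positive values lie in the gene), coloured by the deposited fold enrichment, with triangles at the summits and the 1 kb window in grey. The wide control bar covers the peaks of the other 3 lists in the window, and its triangle at 1279 bp stands outside the grey band. A second control bar reaches into the band, with its triangle outside it at 1101 bp before the start.

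The control peak at the start of Dner had a fold enrichment of 3.93 (the authors' value, as for all folds here), a pileup of 18 fragments over a background of 3.84 and a q of 0.00142. The TBC1D3 peak, from 84695161 to 84696203, had a fold of 4.50, a pileup of 9 over 1.22 and a q of 0.0116. The MICAL1-M1 peak, from 84694715 to 84696141, had a fold of 4.82, a pileup of 19 over 3.15 and a q of 1.87e-05. The DIV7 peak, from 84695395 to 84696148, had the lowest fold, 3.50, with a pileup of 7 over 1.28 and a q of 0.71.

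Divided by the background, these pileups gave 4.69 in the control (interval 2.78 to 7.41), 7.37 with TBC1D3 (3.37 to 14), 6.03 with MICAL1-M1 (3.63 to 9.42) and 5.45 at DIV7 (2.19 to 11.2). These are values of peaks that Dner was chosen by, in 1 library each, and no difference between conditions is read from them. Each pileup is that of the highest point of its peak. Within its own list, the Dner peak was among the top 0.536% of peaks by p in the control, 0.186% with TBC1D3, 0.0453% with MICAL1-M1 and 2.07% at DIV7. The control peak was also wide, since 0.0848% of the control's peaks were at least as wide. Upstream of the start the control had 2 more summits within 3 kb, at 1101 bp (2.79-fold) and 2104 bp (2.85-fold), and the DIV7 list had 1, at 1855 bp (1.75-fold).

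Of the 21887 genes, 4 had a peak with a q of at most 0.05 touching a 1 kb end window in the control, TBC1D3 and MICAL1-M1 lists alike: Dner, Il3ra and the uncharacterised Gm20783 and LOC108167694. These 4 were singled out after their values were seen. At the far end of Dner, where transcription stops, MICAL1-M1 had a summit 378 bp past the end (2.22-fold, q of 1), and the other 3 lists had none within 3 kb.

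Along the body of Dner, summits were frequent in every list. The control had 39 summits between the gene ends, TBC1D3 44, MICAL1-M1 59 and DIV7 45, which is 11.9, 13.5, 18.1 and 13.8 summits per 100 kb. Over the 2429 protein-coding genes of 100 kb or more the densities were 5.73, 8.49, 7.81 and 8.79 in the same order, each below the counting interval of Dner (8.50 to 16.3, 9.80 to 18.1, 13.8 to 23.3 and 10.1 to 18.4). Of these long genes, 7.78% were at least as dense as Dner in the control, 7.16% with TBC1D3, 2.10% with MICAL1-M1 and 7.66% at DIV7. This is a description with no test. Base composition along the gene was not analysed.

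**Figure D2:**
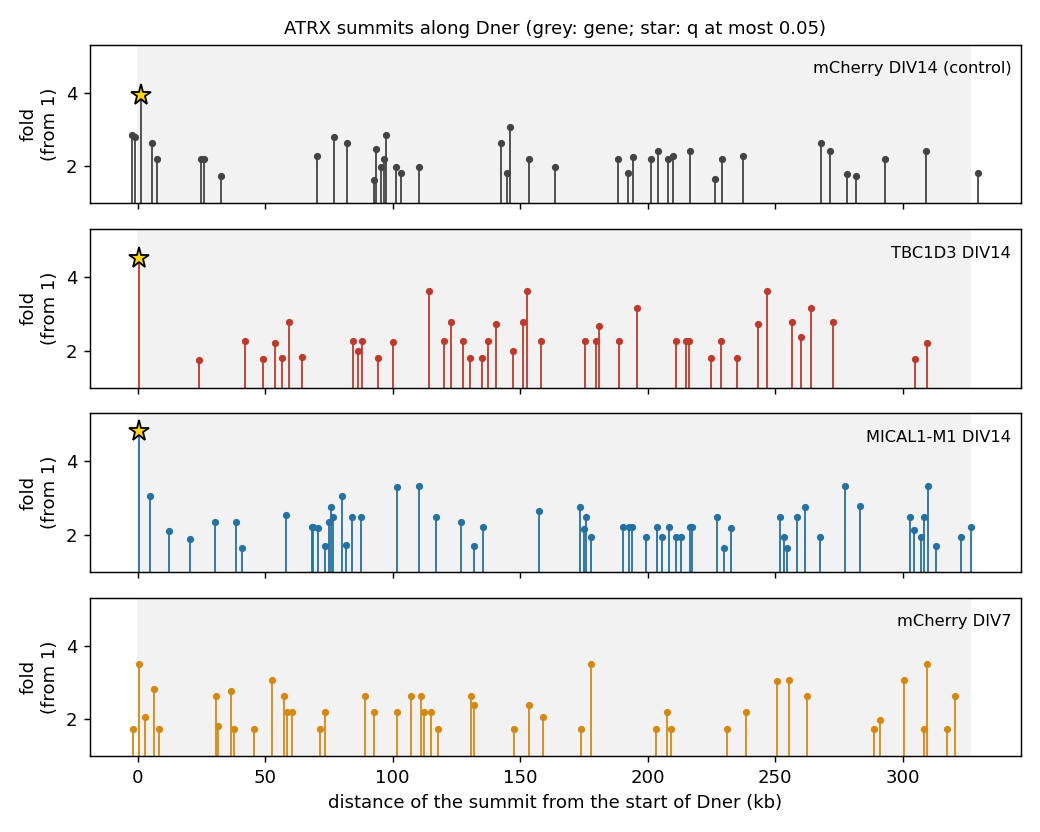
Summits along Dner in each list, placed by distance from the start in kb, with the deposited fold as height (axis from 1, which is no enrichment) and a star for a q of at most 0.05. Each DIV14 list has its star at the start, and summits of lower fold run through the gene in all 4 lists.

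Few of the body summits lay at the same place in different lists. Peaks were not merged over all genes, so whether these region counts are particular to Dner was not tested. Merged across lists, the peaks of Dner and 3 kb on either side formed 158 regions, of which 132 came from 1 list, 22 from 2 lists, 2 from 3 lists and 2 from all 4. Of the latter, 1 was the start. The other lay about 309 kb into the gene, at 84385943 to 84387490, where folds were 2.42 in the control, 2.22 with TBC1D3, 3.32 with MICAL1-M1 and 3.50 at DIV7. All 4 of these peaks had a q above 0.05.

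Of the control's 39 Dner peaks, 3 (7.69%, interval 1.62 to 20.9) were overlapped by a TBC1D3 peak, 8 (20.5%, 9.30 to 36.5) by a MICAL1-M1 peak and 5 (12.8%, 4.30 to 27.4) by a DIV7 peak. Over all protein-coding gene bodies the control's shares were 13.6%, 25.6% and 12.8%, inside each of these intervals. Between the other lists the shares at Dner went both ways. A MICAL1-M1 peak overlapped 10 of the 45 DIV7 peaks (22.2%, 11.2 to 37.1), against 9.53% over all gene bodies. It overlapped 9 of the 44 TBC1D3 peaks (20.5%, 9.80 to 35.3), against 11.7%, inside the interval. With at least 50% of the peak covered, the TBC1D3 share was 8 of 44 (18.2%, 8.19 to 32.7), against 7.64%. The DIV7 share was then 13.3% (5.05 to 26.8), against 5.92%, inside the interval. Lower shares were those of TBC1D3 peaks overlapped by DIV7 (4.55%, against 9.5%) and of DIV7 peaks by TBC1D3 (4.44%, against 9.18%). MICAL1-M1 summits were dense at Dner, as given above, and the shares were not adjusted for it. Many pairings were read, so a share outside an interval is no test.

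Across the 10 genes, a summit lay within 1 kb of an end of 6 in the control (42.3% of all protein-coding genes), 5 with TBC1D3 (33.4%), 3 with MICAL1-M1 (38.7%) and 4 at DIV7 (33.2%). With 10 genes the intervals run from 26.2% to 87.8% in the control and from 6.67% to 65.2% with MICAL1-M1, and each of the 4 contains the share of all genes. The counts are therefore not set apart from the background. Within 3 kb the counts were 10 (53% of all genes), 6 (57.7%), 7 (53.2%) and 8 (59.3%). In this wider window each of the 10 genes had a control summit, and the control's interval of 69.2% to 100% lay above the share of all genes. It held the control's share of the 52 other pathway genes described below, 78.8%. With lists cut to the control's length the counts of the 10 genes were 6 (42.3%), 5 (19.2%), 3 (33.4%) and 3 (17.6%). By any base of a peak within 1 kb they were 8 (45.7%), 5 (36.9%), 4 (42.3%) and 6 (37%), and Dner and Jag1 then counted in all 4 lists. At a q of 0.05 or less, any base of a peak gave 1 (9.56%), 1 (0.192%), 1 (1.57%) and 0 (0.27%), the gene being Dner each time. By the summit the counts were then 0 (8.47%), 1 (0.146%), 1 (1.33%) and 0 (0.228%). Dner was chosen by its strong TBC1D3 and MICAL1-M1 peaks, so its counts in those lists follow from the choice. Around the start of transcription alone, over the 17492 genes with an annotated start, the counts were 6 (43.8%), 4 (27.1%), 4 (38.6%) and 2 (27.1%).

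**Figure D3:**
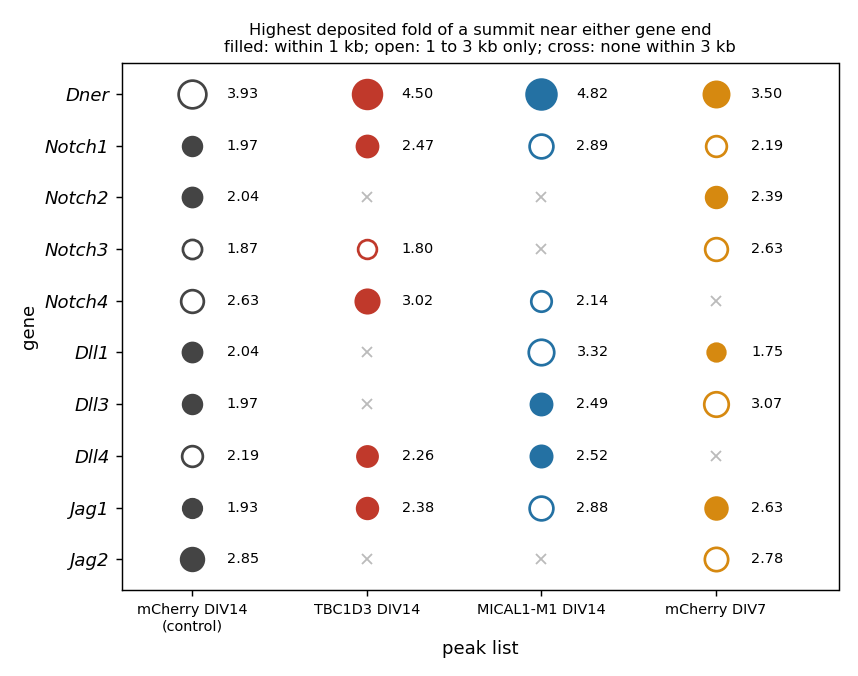
The highest deposited fold of a summit near either end of each gene (rows) in each list (columns), printed beside circles whose size follows it; filled circles give the highest within 1 kb, open circles the highest at 1 to 3 kb where none was nearer, and crosses none within 3 kb. Every gene has a circle in the control column, and Dner has the highest fold in each column. Dner was chosen by its peaks with TBC1D3 and MICAL1-M1, so its lead in those columns is no result.

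Among the receptors, Notch1 (chr2:26457902-26503822, minus strand), the broadly used receptor of neural progenitors, had control summits 19 bp before its start (1.97-fold, pileup 11 over 5.09), 1188 bp into it (1.81-fold) and 2626 bp into it (2.19-fold). TBC1D3 had a 1054 bp peak over the Notch1 start with its summit 710 bp into the gene (2.47-fold, pileup 6 over 1.83). MICAL1-M1 had a summit at 1570 bp (2.89-fold), outside the window, and DIV7 at 2802 bp (2.19-fold). Each of these peaks overlapped a different 1 of the control's 3, TBC1D3 the one over the start, MICAL1-M1 the next and DIV7 the farthest. All 4 lists thus had a summit within 3 kb of the Notch1 start, with a q above 0.05.

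Notch2 (chr3:98013538-98150367, plus strand), expressed in progenitors and glia, had its control summits 357 bp into the gene (1.74-fold) and 499 bp past the far end (2.04-fold). The DIV7 list had a summit 474 bp past the far end (2.39-fold), and that peak overlapped the control's. TBC1D3 and MICAL1-M1 had no summit within 3 kb of either end of Notch2, but each had a peak inside the gene at 98066689 to 98067461, as did the other lists (folds of 1.80 to 2.41).

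Notch3 (chr17:32120820-32166896, minus strand), the receptor of vascular mural cells, had no summit within 1 kb of an end in any list. Its control summit at 1085 bp and its DIV7 summit at 1163 bp were just outside (1.87-fold and 2.09-fold), and MICAL1-M1 had no peak in the gene at all. Notch4 (chr17:34564286-34588543, plus strand), a receptor of endothelium, had 1 summit within 1 kb, 830 bp past its far end with TBC1D3 (3.02-fold, pileup 6 over 1.32). Near the same end the control had a summit 1525 bp inside the gene (2.63-fold, pileup 15 over 5.09). The summits nearest to the 1 kb limit on the inside were those of Notch4 at 830 bp and of Dll1 at 851 bp, and on the outside those of Jag1 at 1079 bp and Notch3 at 1085 bp.

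Among the Delta-like ligands, Dll1 (chr17:15367354-15376932, minus strand), which is shown by newborn neurons to neighbouring progenitors, had a control summit 851 bp before its start (2.04-fold, pileup 14 over 6.37). Its highest fold was that of MICAL1-M1, 3.32 at 1564 bp into the gene (pileup 11 over 2.61, q of 0.325), over the second annotated start of Dll1. TBC1D3 had no Dll1 summit within 3 kb of an end, and DIV7 had 1 of 1.75-fold past the far end.

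Dll3 (chr7:28293555-28301785, minus strand), a ligand that inhibits the receptor in its own cell, had a control summit 67 bp into the gene (1.97-fold) and a MICAL1-M1 summit at 471 bp (2.49-fold). At DIV7 its summits lay near the far end, the nearest 1382 bp inside it (3.07-fold, pileup 6 over 1.28). Dll4 (chr2:119325784-119335666, plus strand), the ligand of sprouting vessels, had a MICAL1-M1 peak over its start with the summit at 25 bp (2.52-fold, pileup 9 over 2.97). TBC1D3 had Dll4 summits 752 bp before the start (1.71-fold) and 603 bp past the far end (2.26-fold), with pileups of 3 and 4. The control had 1 at 2346 bp past the far end (2.19-fold), and DIV7 had no peak at Dll4.

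Of the Jagged ligands, Jag1 (chr2:137081451-137116520, minus strand), a ligand of progenitors and neurons, was the other gene with a peak touching its start window in all 4 lists. The control had 3 summits there, 349 bp before the start (1.93-fold) and 1149 bp (3.05-fold, pileup 16 over 4.57, q of 0.047) and 1994 bp (2.13-fold) into the gene. The TBC1D3 summit lay at 626 bp (2.38-fold), the MICAL1-M1 summit at 1079 bp (2.88-fold) and the nearest DIV7 summit at 261 bp (2.63-fold, in a peak of 1108 bp over the start). The control's strongest Jag1 peak, from 137115053 to 137115437, did not touch the 1 kb window, unlike that of Dner, and was the other peak of the 10 genes with a q of at most 0.05 in that list. A peak touched the 1 kb windows in all 4 lists at 2 of the 10 genes and at 1877 of the 21887 genes (8.58%).

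Jag2 (chr12:112907803-112929812, minus strand), needed in limb and thymus, had control summits 620 bp into the gene (2.85-fold, pileup 12 over 3.56) and 293 bp before its outermost start (2.23-fold). TBC1D3 and MICAL1-M1 had no peak at Jag2 or within 3 kb of it. DIV7 had 1 summit, 1510 bp into the gene (2.78-fold, pileup 6 over 1.51).

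**Figure D4:**
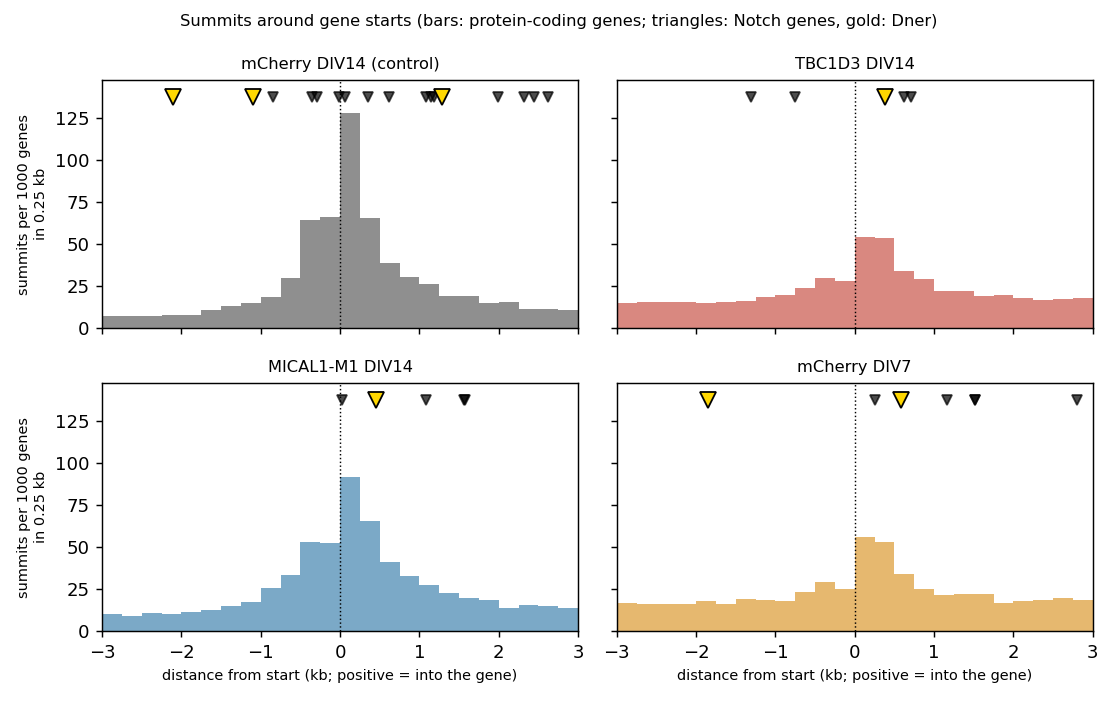
Summits per 1000 genes in 0.25 kb steps around the start, over 14731 protein-coding genes with a single annotated start, in each list (bars; positive distances lie in the gene); triangles mark the summits of the 10 genes within 3 kb of their starts, gold for Dner. The bars peak just inside the gene in all 4 lists, and the gold triangle at 1279 bp in the control lies on the shoulder of the peak.

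Within 3 kb of the start, the control had 17 summits at 8 of the 10 genes, of which 7 lay within 1 kb and 11 inside the gene. Over single-start genes, 68.2% of the control's summits in this range lay within 1 kb and 60.4% inside the gene. TBC1D3 had 5 such summits at the 10 genes, 4 of them within 1 kb (49.3% over single-start genes), MICAL1-M1 had 6 with 3 (61.9%) and DIV7 had 7 with 2 (47.2%). The median distance from the start was 1101 bp for the control summits of the 10 genes, against 500 bp over single-start genes. A window of 1 kb thus held 7 of the 17 control summits near these starts.

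Beside the control, TBC1D3 had a gene-end summit at 3 genes where the control had none within 1 kb (Dner, Dll4 and Notch4; 15.6% of all genes), and lacked one at 4 where the control had it (Dll1, Dll3, Jag2 and Notch2; 24.4%). MICAL1-M1 had one at 2 genes without a control summit (Dner and Dll4; 11.6%) and lacked one at 5 (Dll1, Jag1, Jag2, Notch1 and Notch2; 15.2%). DIV7 had one at 1 gene without a control summit (Dner; 15.7%) and lacked one at 3 (Dll3, Jag2 and Notch1; 24.7%). The 3 comparisons share the control list, so Dner standing in all 3 rests on the same control summits, which lay just outside the window. Jag2 was likewise the gene missing from all 3 of the other lists.

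Dner left these sets when a different part of the peak was counted. By any base of the peak, TBC1D3 had 2 genes that the control lacked (Dll4 and Notch4; 15.8%), MICAL1-M1 1 (Dll4; 11.1%) and DIV7 0 (16.1%), and the control had 5 (24.6%), 5 (14.5%) and 2 (24.8%) that they lacked. Within 3 kb each of the 10 genes had a control summit. None of the 3 lists could then have a gene of the 10 that the control lacked (21.8%, 12.4% and 23.3% of all genes). The control had 4 (17.2%), 3 (12.2%) and 2 (17%) that they lacked. With summits within 1 kb at a q of 0.05 or less, Dner was the 1 gene for TBC1D3 (0.105%) and the 1 for MICAL1-M1 (0.864%), DIV7 had 0 (0.174%), and the reverse count was 0 in each (8.43%, 8% and 8.41%). Dner was chosen by these TBC1D3 and MICAL1-M1 summits, so both counts follow from the choice and are no result about the 10 genes.

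At each of the 10 genes that another list had and the control lacked, the control had a summit within 3 kb of an end. This follows from all 10 having one, and is no further result. Over all genes, a control summit lay within 3 kb at 862 of the 3405 genes that TBC1D3 had and the control lacked (25.3%). It was 902 of 2542 for MICAL1-M1 (35.5%) and 833 of 3430 for DIV7 (24.3%). A control summit lay within 3 kb of 53% of all genes, but this includes the 42.3% with one within 1 kb. The genes that the control lacked have none there by definition, so 53% is not their background. A control peak touched the window itself at 303 (8.90%), 367 (14.4%) and 299 (8.72%) of those genes, Dner among them each time. Of the genes that the control had and another list lacked, Dll1, Dll3, Jag2 and Notch2 had no TBC1D3 summit within 3 kb, and Jag2 and Notch2 had no MICAL1-M1 summit there. The 3 genes that DIV7 lacked (Dll3, Jag2 and Notch1) each had a DIV7 summit within 3 kb.

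Along the bodies of the 10 genes the control had 67 summits, TBC1D3 85, MICAL1-M1 87 and DIV7 88, which is 10.1, 12.8, 13.1 and 13.2 per 100 kb, against 5.10, 7.92, 6.78 and 8.15 over all protein-coding genes. Dner makes up 326 of their 664 kb. Without Dner the densities were 8.29 (interval 5.51 to 12), 12.1 (8.71 to 16.5), 8.29 (5.51 to 12) and 12.7 (9.21 to 17.1), and in MICAL1-M1 the interval then held the density over all genes. With lists cut to the control's length, they were 6.81 (4.32 to 10.2) with TBC1D3, 5.92 (3.62 to 9.14) with MICAL1-M1 and 3.55 (1.84 to 6.20) at DIV7. Over all genes the densities were then 3.83, 4.78 and 3.67, inside the interval for MICAL1-M1 and DIV7 and below it for TBC1D3. Of the control's 67 body peaks, 5 (7.46%) were overlapped by TBC1D3, 16 (23.9%) by MICAL1-M1 and 13 (19.4%) by DIV7, against 13.6%, 25.6% and 12.8% over all gene bodies, each inside the counting interval of the 10 genes (2.47 to 16.6, 14.3 to 35.9 and 10.8 to 30.9). When at least 50% of the control peak had to be covered, the DIV7 share was 14.9% (7.40 to 25.7) against 4.40% over all gene bodies, outside the interval. The TBC1D3 share was then 2.99% against 4.57% and the MICAL1-M1 share 10.4% against 13.7%, both inside. Of the 88 DIV7 body peaks, 14 (15.9%, 8.98 to 25.2) were overlapped by a control peak, against 8.52%. Of the 85 TBC1D3 body peaks, 17 (20%, 12.1 to 30.1) were overlapped by MICAL1-M1, against 11.7%. With at least 50% of the TBC1D3 peak covered, that share was 15.3% (8.40 to 24.7), against 7.64%. In the other pairings at 1 bp, the share over all gene bodies lay inside the interval. Summits of each list were denser in these bodies than over all genes, and the shares were not adjusted for it. Many pairings were read at both overlap settings, so a share outside an interval is no test.

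The rest of the pathway was given by 52 genes in 8 role groups, all found in the RefSeq table. A gene-end summit within 1 kb was present at 35 in the control (67.3%), 23 with TBC1D3 (44.2%), 35 with MICAL1-M1 (67.3%) and 22 at DIV7 (42.3%), against 42.3%, 33.4%, 38.7% and 33.2% of all genes. With TBC1D3, 7 of the 52 had a summit where the control had none (15.6% of all genes) and 19 the reverse (24.4%). With MICAL1-M1 it was 9 (11.6%) and 9 (15.2%), and at DIV7 4 (15.7%) and 17 (24.7%). Peaks reaching a q of 0.05 or less stood at 12 of the 52 in the control (8.47% of all genes), at 0 with TBC1D3 (0.146%), at 1 with MICAL1-M1 (1.33%) and at 0 at DIV7 (0.228%). Within 3 kb a summit was present at 41 (78.8%), 36 (69.2%), 45 (86.5%) and 35 (67.3%), against 53%, 57.7%, 53.2% and 59.3% of all genes. The role groups are small, so their counts below are given beside the share of all genes and not read as results.

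**Figure D5:**
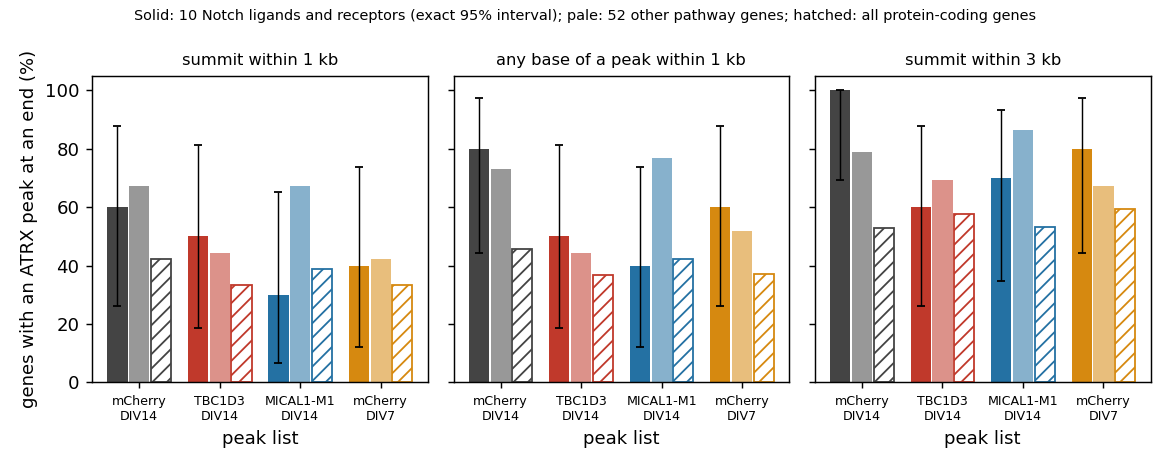
Percent of genes with an ATRX peak at an end in each list, by summit within 1 kb, by any base of a peak within 1 kb and by summit within 3 kb; solid bars are the 10 Notch ligands and receptors with exact 95% intervals, pale bars the 52 other pathway genes and hatched bars all protein-coding genes. In the control the solid bar goes from 60% to 80% and 100% as the criterion widens.

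The Hes and Hey repressors, the main targets of Notch signalling, had control summits at 6 of 7 genes (42.3% of all genes). Hey2 had the highest control fold of them, 4.16 (q of 0.000676), then Hes1 with 3.75 (q of 0.00391), Hey1 with 3.72 (q of 0.00701) and Hes6 with 3.46 (q of 0.0096). These 4 are the ones with a control q of at most 0.05. In the other lists Hes1 had 2.69 with TBC1D3, no summit within 1 kb with MICAL1-M1, whose peak touched the window, and 1.75 at DIV7, and Hey2 had none with TBC1D3, 2.65 with MICAL1-M1 and 3.07 at DIV7. Folds come from lists of different depth and are given side by side, with no comparison between lists. Hes7, at 2.43-fold in the control, had 3.6 with MICAL1-M1 (q of 0.0702), and Heyl had a summit with TBC1D3 (2.71-fold) and none in the control. TBC1D3 had 4 of the 7 (33.4% of all genes), MICAL1-M1 5 (38.7%) and DIV7 4 (33.2%).

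In the nuclear complex the control had summits at 6 of 9 genes (42.3% of all genes), led by the Mastermind coactivator gene Maml1 (3.78-fold, q of 0.00229). No other list had a Maml1 summit within 1 kb, although a MICAL1-M1 peak touched the window. Rbpj, the DNA-binding partner of Notch, had a gene-end summit with MICAL1-M1 (2.76-fold, q of 1) and none within 3 kb in the other 3 lists. TBC1D3 had 3 of the 9 (33.4% of all genes), MICAL1-M1 4 (38.7%) and DIV7 3 (33.2%).

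The ligand ubiquitin ligases, which drive uptake of the bound ligand, had summits at 2 of 4 genes in the control (42.3% of all genes). It was 3 with TBC1D3 (33.4%), 4 with MICAL1-M1 (38.7%) and 0 at DIV7 (33.2%). Mib2 had the highest control fold of the 52 genes (4.38-fold, q of 0.000177). The proteases that cut the receptor are ADAM10, ADAM17, furin and the gamma-secretase subunits. They had 4 of 10 in the control (42.3% of all genes), 3 with TBC1D3 (33.4%), 7 with MICAL1-M1 (38.7%) and 2 at DIV7 (33.2%). Adam10 and the gamma-secretase gene Ncstn had a q of 0.047 in the control (3.29-fold each).

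In the same order of lists, the shares of all genes beside the next counts are 42.3%, 33.4%, 38.7% and 33.2%. Receptor glycosyltransferases, which tune the choice of ligand, had 3 of 5 in the control, 1 with TBC1D3, 3 with MICAL1-M1 and 3 at DIV7. Receptor inhibitors and trafficking genes had 7 of 8, 4, 6 and 3, with Numbl at a q of 0.0363 in the control (3.16-fold). The further non-canonical ligands had 4 of 6, 3, 3 and 5. Of those the contactin gene Cntn6 (3.72-fold) and Ccn3 (3.48-fold) had a q of 0.00701 in the control. Dlk1, which inhibits the receptor, had the highest fold of the 52 genes with TBC1D3 (3.61-fold, q of 0.457) and shared the highest at DIV7 with Hey2, Maml3 and Neurog1 (3.07-fold, q of 1), with no control summit within 1 kb but one within 3 kb.

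Genes with a pattern like the one Dner was picked for were sought with a stricter rule: no control summit within 3 kb of either end, and a summit within 1 kb in both TBC1D3 and MICAL1-M1, ranked by the smaller of the 2 values of -log10 p. Of the 21887 genes, 620 (2.83%) met it, and Dner did not, because of its control summits. The first 5 were Zc3h12c (smaller -log10 p of 5.27), Eci1 (4.39), Dpm3 (4.05), Lars2 (4.05) and Rab10 (4.05). None of these 5 had a q of at most 0.05 in both lists. Lars2 had a strong peak with TBC1D3 (5.93-fold, q of 2.32e-33) and a weaker one with MICAL1-M1 (3.05-fold, q of 0.732). No control peak touched their 1 kb windows, which a rule of no control summit within 3 kb all but ensures. It is therefore not read as a contrast with Dner.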

How the data were processed

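The 4 ChIP libraries were described from the peak list that the authors deposited for each. The input DNA library was not used. An enzymatic kit and an ATRX antibody yielded the chromatin, per the labels' protocols. The tools named in the submitters' processing notes are Bowtie 1.3.0, SAMtools 1.9, ChIPseeker 1.26.2 and MACS 1.4.2. Their roles and settings and the build are not given in those notes or the labels. The 10-column layout is not one that MACS 1.4.2 writes, so the caller is uncertain, and the meaning of each column was taken from the layout. The deposited score is the whole-number part of 10 times the -log10 p. The deposited fold is a ratio, which the rows fit as pileup plus 1 over local background plus 1. The deposited -log10 p and -log10 q are the caller's. The authors deposited 1 list per sample.

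The summit is the peak start plus the deposited offset. Genes came from RefSeq on GRCm38.p6; on 20 or 21 of the 21 chromosomes of each list, summits were denser around gene ends than at a distance of 20 kb. Gene-end windows reached 1 kb to each side of both outermost gene ends, and distances are from these ends; 17492 genes had a strand from the RefSeq promoter table. Pileup and background were solved from fold and p, within 0.001 in log10 p, for 99.97% to 99.99% of peaks; read totals were not analysed. Peaks were compared by an overlap of at least 1 bp. The recovery and the window counts were tested on simulated peaks. Python 3.11.15, pandas 2.3.3 and SciPy 1.17.1 were used. The members and lists were chosen with earlier results of these data known. All 10 members were named; of other pathway genes, those with a gene-end peak at a q of at most 0.05 and the highest fold in each list were named, and Rbpj, Hes7 and Heyl were added after their values were seen. The results of 1 pathway gene are not reported here.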

Additional observations from a re-analysis of the deposited data

How the results depend on the processing

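No paired analysis was possible because each group has 1 library and the result comes from no test; leaving out a replicate was likewise not possible. Counts of the 10 genes with a gene-end summit were 6 in the control, 5 with TBC1D3, 3 with MICAL1-M1 and 4 at DIV7. With a 3 kb window they were 10, 6, 7 and 8, at a q of at most 0.05 they were 0, 1, 1 and 0, and with any base of such a peak, an alternative chosen after seeing the data, 1, 1, 1 and 0. At the start of transcription alone the DIV7 count was 2. Genes present in another list and not in the control went from 3 with TBC1D3, 2 with MICAL1-M1 and 1 at DIV7 to 0, 0 and 0 in a 3 kb window, to 1, 1 and 0 at a q of at most 0.05, and, with any base of the peak, to 1 for MICAL1-M1 and 0 for DIV7. Genes in the control and not in another list went from 4, 5 and 3 to 0, 0 and 0 at a q of at most 0.05, and for MICAL1-M1 to 3 in a 3 kb window. The Dner fold in the control went from no summit (0) to 3.93 with a 3 kb window and to 3.93 with any base of the peak, and did not move in the other 3 lists. The 52 other pathway genes were occupied in 35, 23, 35 and 22 cases; at a q of at most 0.05 these became 12, 0, 1 and 0, in a 3 kb window 36 with TBC1D3 and 35 at DIV7, and with lists cut to the control's length 13 with TBC1D3. Body densities per 100 kb went to 0.301, 0.151, 0.151 and 0 at a q of at most 0.05, and at equal list length to 7.68 with TBC1D3 and 6.02 at DIV7. Over all protein-coding genes they were 0.267, 0.0123, 0.0422 and 0.0148 at that q, and 3.83 and 3.67 at equal list length. At that q the 10 genes held 2, 1, 1 and 0 body summits, those of TBC1D3 and MICAL1-M1 being the ones Dner was chosen by. The share of control body peaks overlapped by MICAL1-M1 went from 23.9% to 10.4% when 50% of the peak had to be covered. Fewer peaks, or a wider window, are built into these alternatives. Most single summits rest on pileups of 3 to 12 fragments, so presence or absence at a single gene is weakly determined.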

Other observations

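Markers of cell types that such cultures can hold were counted in the same way, as genes with an ATRX summit within 1 kb of an end, which says nothing of expression. Of 5 neuronal markers 4 were occupied in the control, 1 with TBC1D3, 4 with MICAL1-M1 and 3 at DIV7. Of 5 astrocyte markers it was 0, 2, 1 and 3, of 5 progenitor markers 2, 2, 4 and 2, of 5 markers of the oligodendrocyte lineage 4, 2, 3 and 3, and of 5 microglia markers 0, 0, 0 and 1. The share of all genes occupied was 42.3%, 33.4%, 38.7% and 33.2%.

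Notch2, the other member longer than 100 kb, had its densities read in the same way. It had 7.31 per 100 kb in the control, where 27.1% of long genes were at least as dense, 13.2 with TBC1D3 (8.03%), 12.4 with MICAL1-M1 (13%) and 13.2 at DIV7 (9.92%). Peaks were merged across lists for the 10 genes only, with no share over all genes to set beside them. There were 275 merged regions, of which 224 came from 1 list and 4 from all 4 lists. Of these 4, 1 of the 2 at Dner and the 1 at Jag1 covered the start of the gene.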
